A study of Mus musculus with 18 samples.

Results

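The 8 genes described here belong to the machinery by which cells recognise and engulf dying neighbours. They are the receptor tyrosine kinase genes Mertk, Axl and Tyro3, their ligand genes Gas6 and Pros1, the bridging protein gene Mfge8, the integrin subunit gene Itgb3 and the engulfment receptor gene Megf10. They were chosen by name for their roles, and all 8 were found among the 35869 gene symbols of the deposited files. Microglia and astrocytes had been isolated by flow cytometry out of brains of C57BL/6 mice, and their RNA sequenced, after tamoxifen given by oral gavage in 5 doses of 180 mg/kg. The controls carried Cx3cr1CreERT2, in which the Cx3cr1 gene drives a Cre recombinase that tamoxifen activates, and had no floxed allele named in the labels. KO mice carried Cx3cr1CreERT2 together with Tgfb1fl/fl, that is, with the gene of transforming growth factor beta 1 flanked by loxP sites. Thus tamoxifen and the recombinase allele were common to all groups, and Cx3cr1 also drives the recombinase in macrophages at the borders of the brain. Microglia were compared from control animals 1, 2, 4 and 5 (n = 4) and from 4 KO animals, and astrocytes from 5 control and 4 KO animals, with 1 animal per library. The labels give neither ages nor sexes.

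Efferocytosis, the clearance of apoptotic cells, starts with phosphatidylserine on the surface of the dying cell. The secreted proteins GAS6 and PROS1 (protein S) bind this lipid through domains that need vitamin K-dependent carboxylation, and they bridge it to the receptors TYRO3, AXL and MERTK, together called the TAM receptors. GAS6 can activate each of them, PROS1 chiefly TYRO3 and MERTK. Mfge8 encodes another bridging protein, which ties phosphatidylserine to integrins of the alpha-v family, and Itgb3 encodes a beta subunit of these integrins. MERTK is a main engulfment receptor of resting microglia and of astrocytes, AXL is known from inflamed or activated phagocytes, and MEGF10 serves engulfment by astrocytes.

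All values are TPM, a share of the transcripts of a library corrected for gene length and scaled to a fixed total, so that levels of different genes in a library can be set beside each other. The files carry TPM with 1 decimal, values under 0.05 are listed as 0, and the read depth behind them is unknown. Differences between groups are differences of mean log2(TPM + 1), which understate changes near 1 TPM, from limma with Benjamini-Hochberg adjustment over all genes tested and a threshold of 0.05. In each library of the comparisons, Tgfb1 was at 2.8 to 3.4 TPM in control microglia and 1.3 to 2.0 TPM in KO microglia, without overlap, and at 0.0 to 0.3 TPM in astrocytes. Its difference in microglia was -0.57 (SE 0.16, limma adjusted p = 0.0258), a call that ended in 9 of 19 alternative fits. The labels do not say which exons the floxed allele removes, so TPM over the whole gene need not measure recombination. All KO animals and control animals 1 and 2 expressed the X-inactivation transcript Xist, whereas control animals 3, 4 and 5 expressed the Y-linked gene Ddx3y at 46.0 to 56.3 TPM. Microglial markers summed to between 43131 and 46717 TPM in control microglia and to between 10021 and 11051 TPM in KO microglia, where all 10 fell, and astrocyte markers to between 17202 and 30486 TPM in astrocytes.

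In KO microglia the receptors and ligands changed in opposite directions within each class. Axl, nearly silent in control microglia, rose 21.7-fold by the group means, and Mertk fell 2.06-fold. Gas6 rose 4.30-fold and Pros1 fell 2.01-fold. Itgb3 fell 6.64-fold. No member passed the threshold in KO astrocytes, where 1 of all 15231 genes tested passed. Of the 8 genes, 6 reached the level needed for a test in microglia, 1 TPM or more in 4 or more libraries. Of these 2 were higher, 3 were lower and 1, Mfge8, did not pass. Over all 13054 genes tested, 14.2% were higher and 14.2% lower, so changes of either sign were common in these cells.

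To show the DNA next to which these changes occurred, the 250 bases before the transcript start are printed for the receptors and ligands that changed. They are from RefSeq (GRCm38.p6), which had an entry for 6 of the 8 members, and run 5′ to 3′ on the strand of the gene. Capitals mark each match, on either strand, to the GC box GGGCGG, a motif of many promoters, and to GAGGAAG, a motif of the ETS type.
Axl, chr7:25788734-25788983, minus strand: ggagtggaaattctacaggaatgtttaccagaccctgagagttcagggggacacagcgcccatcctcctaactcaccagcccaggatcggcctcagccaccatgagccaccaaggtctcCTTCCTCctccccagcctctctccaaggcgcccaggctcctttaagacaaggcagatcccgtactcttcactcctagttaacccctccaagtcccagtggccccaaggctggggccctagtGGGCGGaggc
Mertk, chr2:128698665-128698914, plus strand: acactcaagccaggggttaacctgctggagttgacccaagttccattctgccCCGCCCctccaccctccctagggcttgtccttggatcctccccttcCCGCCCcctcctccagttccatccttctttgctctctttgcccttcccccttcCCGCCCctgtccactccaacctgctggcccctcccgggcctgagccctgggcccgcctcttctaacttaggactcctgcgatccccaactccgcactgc
Gas6, chr8:13494536-13494785, minus strand: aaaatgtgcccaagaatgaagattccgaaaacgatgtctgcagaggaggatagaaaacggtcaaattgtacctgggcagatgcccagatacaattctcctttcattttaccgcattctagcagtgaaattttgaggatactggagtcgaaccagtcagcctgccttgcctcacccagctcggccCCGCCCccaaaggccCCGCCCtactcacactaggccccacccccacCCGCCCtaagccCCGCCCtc
Pros1, chr16:62854057-62854306, plus strand: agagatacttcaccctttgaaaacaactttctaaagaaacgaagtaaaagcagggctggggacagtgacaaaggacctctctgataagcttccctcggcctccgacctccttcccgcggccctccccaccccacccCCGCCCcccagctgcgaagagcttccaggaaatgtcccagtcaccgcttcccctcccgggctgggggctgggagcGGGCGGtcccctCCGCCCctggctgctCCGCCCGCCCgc
The GC box occurred 1 time in Axl, 3 times in Mertk, 4 times in Gas6 and 5 times in Pros1, where neighbouring matches overlap, and at least 1 match was present in 32.9% of 27025 promoters of this length. The only match to GAGGAAG, present in 10.4% of promoters, was in Axl, starting 131 bases before the start site. The interferon-response motif GAAANNGAA, the AP-1 motif TGANTCA and the SMAD palindrome GTCTAGAC had no match in any of the 6 windows, against 7.16%, 6.87% and 0.174% of all promoters. G and C made up 60.0% of the Axl window, 63.6% of Mertk, 54.8% of Gas6 and 64.4% of Pros1. Matches in so short a window describe letters only.

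Mertk (ENSMUSG00000014361, chromosome 2, 128698956 to 128802894, plus strand, GENCODE M21 on GRCm38) is the TAM receptor that dominates in resting microglia. It was at 146.1, 181.8, 247.1 and 251.5 TPM in control microglia of animals 1, 2, 4 and 5. The KO microglia of animals 1 to 4 held 82.9, 104.1, 107.3 and 107.5 TPM. All KO libraries lay below all control libraries, and the controls varied among themselves more than the KO animals did. The means were 207 ± 51.4 TPM (SD, n = 4) and 100.5 ± 11.8 TPM (SD, n = 4), a difference of -1.01 on the log2 scale (SE 0.18, limma adjusted p = 0.00249). The size depended on the controls: it was -0.70 against animals 1 and 2 (adjusted p = 0.0138), which like the KO animals had Ddx3y at or near 0, and -1.31 against animals 4 and 5 (adjusted p = 0.000241).

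Axl (ENSMUSG00000002602, chromosome 7, 25757273 to 25788705, minus strand) encodes the TAM receptor bound with high affinity by GAS6. Its values were 1.1, 1.8, 1.2 and 2.9 TPM in control microglia. In KO microglia they were 33.2, 35.6, 49.2 and 34.0 TPM, with animal 3 the highest. The lowest KO library lay far above the highest control library. The mean rose from 1.75 ± 0.827 to 38.0 ± 7.53 TPM (mean ± SD, n = 4 each), a difference of 3.85 (SE 0.23, limma adjusted p = 2.16e-06). Tyro3 (ENSMUSG00000027298, chromosome 2, 119797733 to 119818104, plus strand), the TAM receptor known mainly from neurons, was listed at 0 in 3 of 4 control microglia libraries and at 0.1 TPM in the other. In KO microglia it was at 0.1, 0.1, 0.0 and 0.0 TPM, below the filter of the fit, and no fold is given.

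Summed over the receptors, TAM receptor RNA had a lower mean in KO microglia and a different makeup. The sum of Mertk, Axl and Tyro3 was 208 ± 51.9 TPM in control (SD, n = 4; 147.2 to 254.5) and 138.5 ± 16.7 TPM in KO microglia (SD, n = 4; 116.2 to 156.5). These ranges overlap. Mertk made up 98.8% to 99.5% of the sum in control microglia and 68.6% to 76.0% in KO microglia. Axl made up 0.483% to 1.14% and 24.0% to 31.4%. The sums and shares follow from the single genes and were not tested.

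Gas6 (ENSMUSG00000031451, chromosome 8, 13465374 to 13494490, minus strand) encodes the ligand of all TAM receptors. Its control microglia held 234.2, 390.7, 274.3 and 294.2 TPM. Those of KO animals held 1226.8, 1271.3, 1413.5 and 1214.5 TPM. The lowest KO library lay well above the highest control library. The difference was 2.12 (SE 0.14, limma adjusted p = 5.20e-06), with means of 298 ± 66.4 and 1282 ± 91.3 TPM (mean ± SD, n = 4 each). Gas6 shares 34 exon bases with Tmem255b on the opposite strand, and whether reads were counted by strand is not given in the sources used here.

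Pros1 (ENSMUSG00000022912, chromosome 16, 62854307 to 62929346, plus strand) encodes protein S, which is also an anticoagulant of blood plasma. It was at 746.4, 609.4, 855.2 and 704.9 TPM in control microglia. In KO microglia it was at 376.5, 409.6, 380.4 and 286.0 TPM, all below every control. The means were 729 ± 102 and 363 ± 53.5 TPM (mean ± SD, n = 4 each), a difference of -1.01 (SE 0.14, limma adjusted p = 0.000465). The ligands therefore changed places. Gas6 made up 23.9% to 39.1% of their summed TPM in control microglia and 75.6% to 80.9% in KO microglia. The sum itself was 1027 ± 68.7 TPM in control microglia (SD, n = 4; 980.6 to 1129.5) and 1645 ± 124 TPM in KO microglia (SD, n = 4; 1500.5 to 1793.9).

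**Figure D1:**
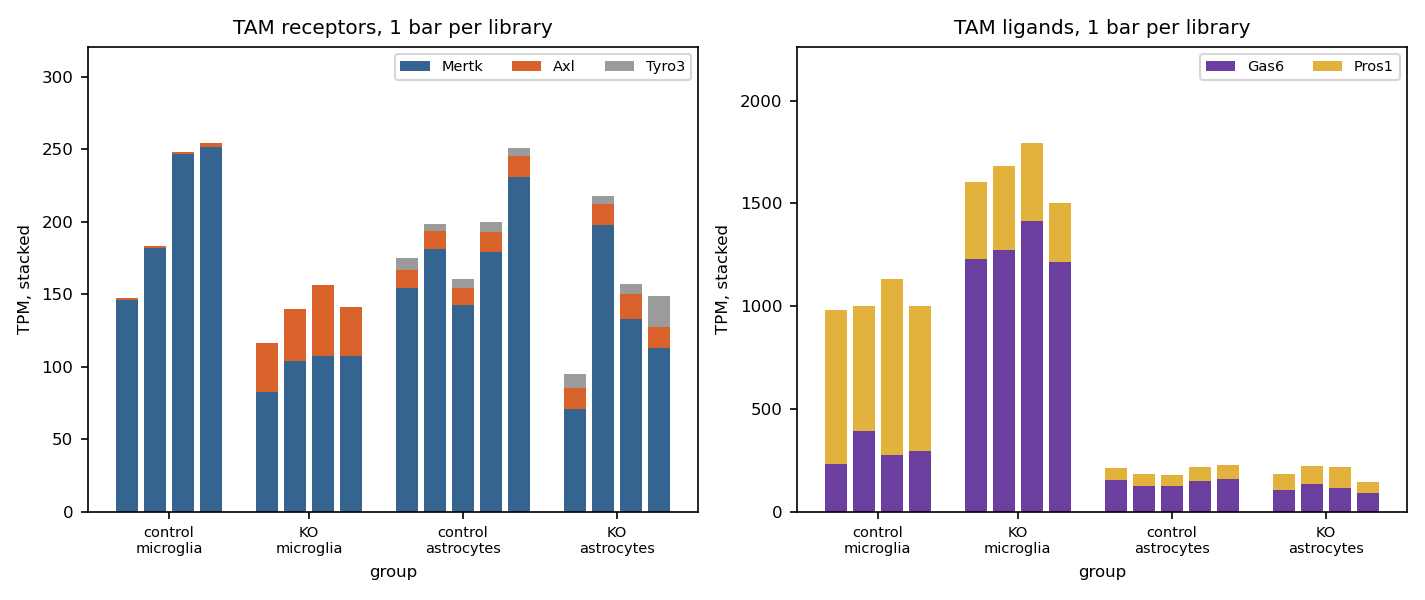
Stacked TPM of the TAM receptors (left) and their ligands (right), 1 bar per library, grouped by cell type and genotype, with linear axes that start at 0. Axl forms 24.0% to 31.4% of the receptor bars in KO microglia and at most 1.14% in control microglia, and Gas6 forms 75.6% to 80.9% of the ligand bars in KO microglia against 23.9% to 39.1% in control microglia.

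Of the bridging and engulfment genes, Itgb3 fell in KO microglia. Itgb3 (ENSMUSG00000020689, chromosome 11, 104608000 to 104670476, plus strand) was at 13.2, 15.3, 7.8 and 8.2 TPM in control microglia. The KO values were 1.7, 0.7, 3.1 and 1.2 TPM. The groups did not overlap, and control animals 1 and 2 were the highest. The means were 11.1 ± 3.71 and 1.68 ± 1.03 TPM (mean ± SD, n = 4 each), a difference of -2.21 (SE 0.31, limma adjusted p = 0.000576), which was -1.26 with a pseudocount of 5 TPM. Itgb3 is also a subunit of the platelet fibrinogen receptor. Of 5 platelet and megakaryocyte markers 3 were tested in microglia, where 1 fell and 2 did not pass. Gp9, a subunit gene of the platelet von Willebrand factor receptor, fell from 9.95 ± 2.31 to 0.425 ± 0.263 TPM (mean ± SD, n = 4 each), while Itga2b, the platelet partner of Itgb3, was at 0.0 to 0.9 TPM in controls and 0.1 to 0.3 TPM in KO animals. The 5 markers summed to 8.8 to 16.6 TPM in control and 5.9 to 6.5 TPM in KO microglia, and their part in the Itgb3 result was not tested.

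Mfge8 (ENSMUSG00000030605, chromosome 7, 79133768 to 79149060, minus strand) held 45.9, 41.8, 32.1 and 30.9 TPM in control microglia. It held 25.2, 27.3, 21.1 and 31.4 TPM in KO microglia. KO animal 4 lay above control animal 5, so the groups overlapped by that pair. The difference was -0.50 (SE 0.17, limma adjusted p = 0.0547). It was -0.73 against control animals 1 and 2 (adjusted p = 0.0221) and -0.27 against animals 4 and 5 (adjusted p = 0.278), and it passed without control animal 5 (adjusted p = 0.0438) or KO animal 4 (adjusted p = 0.0441). Megf10 was at 0.0 to 0.1 TPM in control and 0.0 to 0.2 TPM in KO microglia, too low to test.

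Without overlap between libraries, 2 members were higher and 3 lower in KO microglia, the same 5 that limma called. Over all genes tested, 14.8% were higher in this sense and 15.7% lower. For each of the 5 the two-sided p of an exact permutation test was 0.0286, the lowest possible with 4 against 4 animals (70 assignments). Groups without overlap always give this p, so it adds nothing to the lack of overlap. All 5 kept direction and call in each of the 20 alternative fits.

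**Figure D2:**
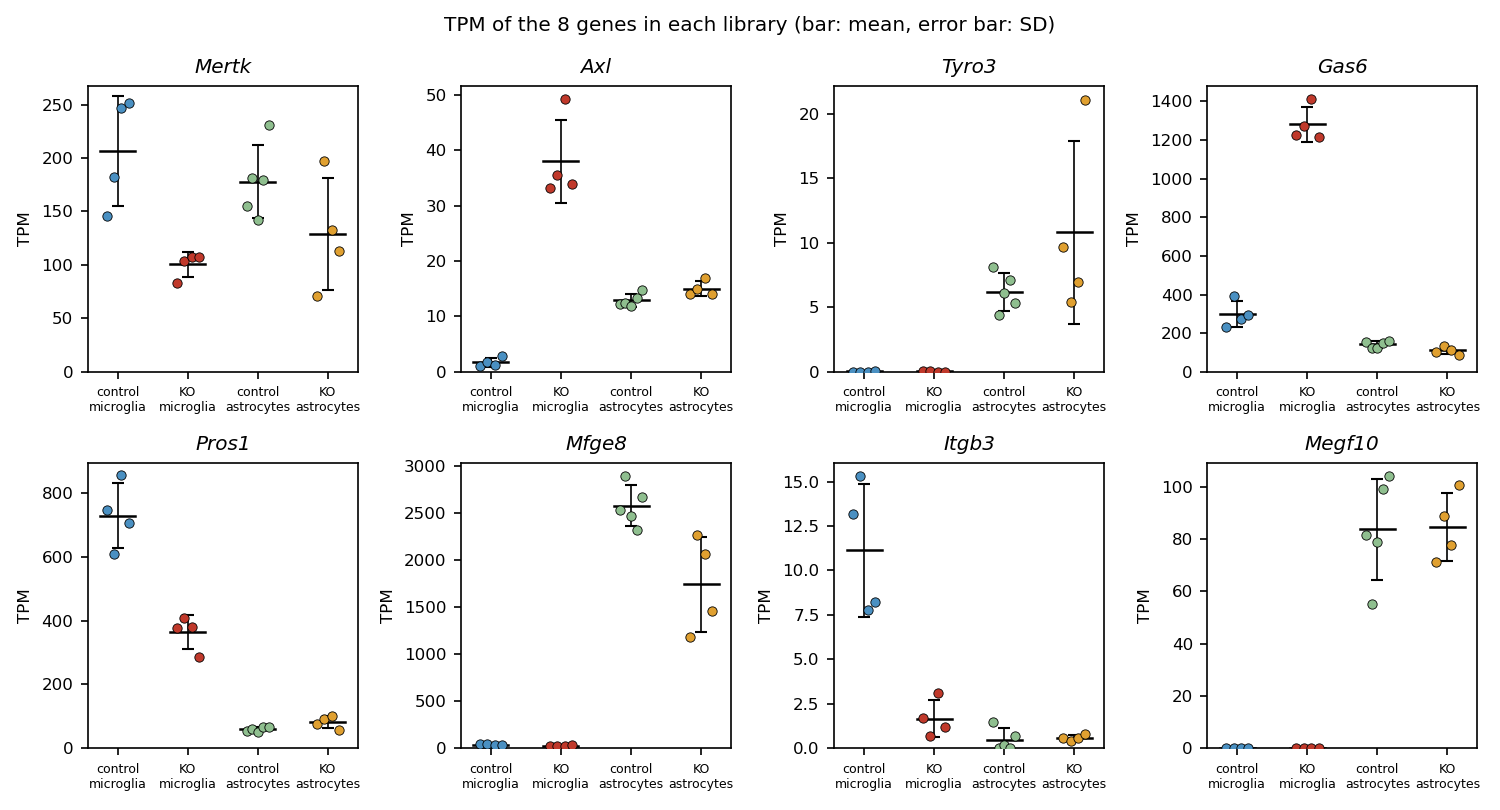
TPM of each of the 8 genes in every library, by group, with linear axes; points are libraries, horizontal bars are means and error bars are SD (n = 4, 4, 5 and 4 for control microglia, KO microglia, control astrocytes and KO astrocytes). The KO and control microglia are apart for Mertk, Axl, Gas6, Pros1 and Itgb3, and Tyro3 and Megf10 lie at 0.0 to 0.2 TPM in all microglia.

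Markers of other cells moved with these groups. Besides the fall of all 10 microglial markers in KO microglia, of 10 markers of border-associated macrophages, which line meninges and vessels, 6 rose, 2 fell (Cbr2 and Cd209f) and 2 did not pass (Lyve1 and Cd163). Their sum was 452.1 to 821.3 TPM in control and 5724 to 6312 TPM in KO microglia. None of these 10 markers was at 0 on average in either group. The mannose receptor gene Mrc1 rose from 108 ± 50.9 to 1629 ± 252 TPM (mean ± SD, n = 4 each), whereas Lyve1, a marker of perivascular macrophages, was at 32.5 ± 30.5 and 8.95 ± 2.78 TPM (mean ± SD, n = 4 each). In bulk RNA, a change in the mix of cells and a change of RNA per cell cannot be told apart, and the part of these cells in the Axl and Gas6 results was not tested. Of 6 monocyte markers 2 were tested, of which 1 rose and 1 fell. Itga4, an integrin subunit gene, rose from 0.85 ± 0.705 to 25.4 ± 2.56 TPM (mean ± SD, n = 4 each), and Ccr2, a chemokine receptor gene, fell from 7.08 ± 1.85 to 2.48 ± 1.39 TPM (mean ± SD, n = 4 each). The 6 markers summed to 6.0 to 11.3 TPM in control and 26.4 to 29.4 TPM in KO microglia, most of it Itga4 in the latter, and Ly6c2 was at 0.525 TPM on average in both groups. Chil3 of this list was listed at 0 in all microglia libraries compared, and Plac8 in those of KO animals.

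In KO astrocytes 7 of the 8 genes were tested and 0 passed (limma). Over all 15231 genes tested 0.00657% were higher and 0.0% lower, a single gene. At an unadjusted p under 0.05 limma listed 3 members, Mfge8, Gas6 and Pros1, and 1939 genes in all. Most of these genes were detected in the astrocyte libraries: Mertk, Axl, Tyro3, both ligands, Mfge8 and Megf10 were at 4.4 TPM or more in each control library.

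Mfge8 was by far the most abundant member in astrocytes and had the smallest p among them. The control astrocytes of animals 1 to 5 held 2532.3, 2894.4, 2471.4, 2321.1 and 2669.1 TPM. The KO astrocytes held 1186.5, 2267.0, 2061.8 and 1463.8 TPM. All KO libraries were below all controls, though animal 2 only narrowly. The means were 2578 ± 217 (SD, n = 5) and 1745 ± 505 TPM (SD, n = 4), a difference of -0.61 (SE 0.18, limma adjusted p = 0.292). In an exact two-sided permutation test the unadjusted p was 0.00794. Mfge8 was the 1 member whose astrocyte libraries did not overlap, and over all genes 2.94% were higher and 1.46% lower in that sense.

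The receptors in astrocytes overlapped between genotypes. Mertk was at 154.7, 181.5, 142.4, 179.3 and 230.9 TPM in controls and at 71.1, 197.6, 133.1 and 113.3 TPM in KO animals, with KO animal 1 the lowest and animal 2 within the control range (difference -0.53, SE 0.26, limma adjusted p = 0.414). Axl was at 12.3, 12.4, 11.8, 13.4 and 14.8 TPM in controls and at 14.0, 14.9, 16.9 and 14.1 TPM in KO animals (difference 0.20, SE 0.12, limma adjusted p = 0.502). Tyro3 was at 8.1, 4.4, 6.1, 7.1 and 5.3 TPM in controls and at 9.7, 5.4, 7.0 and 21.1 TPM in KO animals (difference 0.57, SE 0.33, limma adjusted p = 0.478). KO animal 4 stood apart for Tyro3, and the difference was 0.21 without it.

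The estimates for the ligands in astrocytes had the opposite signs to those in microglia, and neither passed the threshold. Gas6 held 154.8, 124.2, 124.9, 147.3 and 159.0 TPM in controls and 105.0, 133.2, 115.2 and 88.6 TPM in KO animals (difference -0.37, SE 0.13, limma adjusted p = 0.343). Pros1 held 55.7, 60.9, 51.6, 68.1 and 66.6 TPM in controls and 76.9, 90.4, 102.5 and 57.0 TPM in KO animals (difference 0.40, SE 0.17, limma adjusted p = 0.377). In each case 1 KO library lay inside the control range, animal 2 for Gas6 and animal 4 for Pros1. Exact two-sided permutation tests had an unadjusted p of 0.0476 for Gas6 and 0.0635 for Pros1. Gas6 made up 67.1% to 73.5% of the ligand sum in control and 52.9% to 60.9% in KO astrocytes, while the sum was 203 ± 20.9 TPM (SD, n = 5) and 192 ± 36.1 TPM (SD, n = 4).

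Megf10, with a structure of repeated EGF-like domains outside the cell, was at 81.4, 55.1, 78.9, 99.1 and 104.0 TPM in control astrocytes. It was at 71.3, 88.9, 77.7 and 100.6 TPM in KO astrocytes. The KO values fell inside the control range, and the difference was 0.04 (SE 0.19, limma adjusted p = 0.948). Itgb3 was listed at 0 in control animals 2 and 4 and at 1.5, 0.2 and 0.7 TPM in animals 1, 3 and 5. In KO astrocytes it was at 0.4 to 0.8 TPM, and it was not tested in the fit (exact two-sided permutation p = 0.540).

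**Figure D3:**
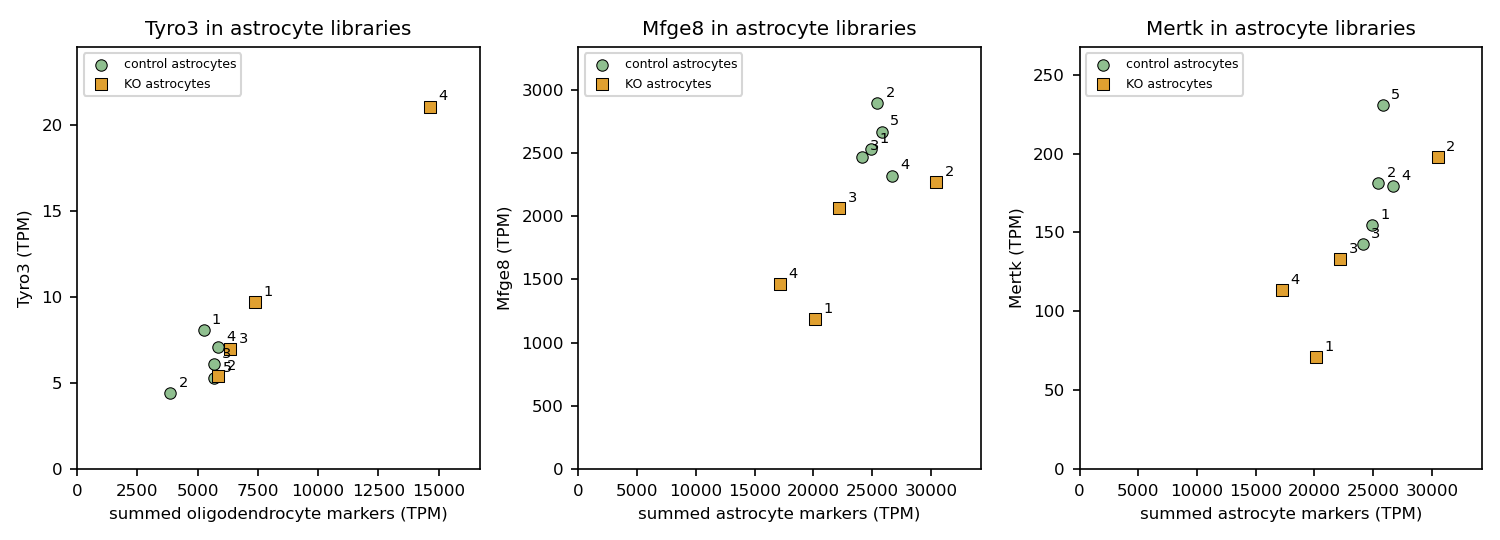
Tyro3, Mfge8 and Mertk in each astrocyte library (TPM, vertical axes) against the summed TPM of oligodendrocyte or astrocyte markers (horizontal axes), with animal numbers beside the points and axes that start at 0. KO animal 4 has both the highest Tyro3, 21.1 TPM, and the highest oligodendrocyte marker sum, and the KO animals with the lowest Mfge8 and Mertk, 1 and 4, have the lowest astrocyte marker sums.

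The makeup of the KO astrocyte libraries varied along with these genes. Astrocyte markers, all 10 of which were detected, summed to between 24109 and 26665 TPM in controls. In KO animals 1 to 4 they summed to 20111, 30486, 22215 and 17202 TPM. Oligodendrocyte markers summed to 3852.5 to 5837.5 TPM in controls and to 7373, 5849, 6349 and 14652 TPM in the KO animals, so the animal with the highest Tyro3, 4, was also that with the most oligodendrocyte RNA. Mural and fibroblast-like markers summed to 200.6 to 3209.7 TPM in controls and to 6376, 757, 9643 and 3644.5 TPM in KO animals. The part of these cells in the astrocyte values was not tested. Microglial markers summed to 329.2 to 383.3 TPM in control and 264.3 to 477.8 TPM in KO astrocytes.

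Whether the KO effect differed between cell types was tested as a contrast over all 17 libraries, in which 6.63% of 17087 genes were higher and 8.87% lower in microglia. The contrast passed for 4 of the 8 members. The effect was more positive in microglia for Axl by 3.66 (SE 0.25, limma adjusted p = 3.52e-08) and for Gas6 by 2.49 (SE 0.20, limma adjusted p = 2.42e-07). It was more negative for Pros1 by -1.41 (SE 0.23, limma adjusted p = 0.000364) and for Itgb3 by -2.41 (SE 0.43, limma adjusted p = 0.000898), the latter from astrocyte values of at most 1.5 TPM. For Mertk, which passed in microglia alone, the contrast was -0.47 (SE 0.34, limma adjusted p = 0.413), so that a difference between the cell types was not shown. It was 0.11 (SE 0.25, limma adjusted p = 0.835) for Mfge8. Tyro3 and Megf10 also did not pass.

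**Figure D4:**
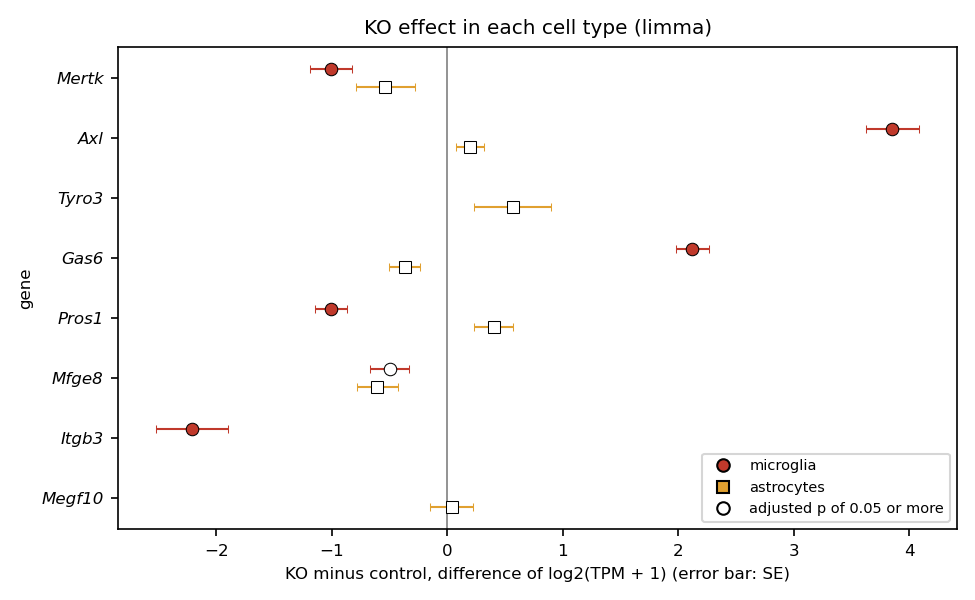
KO minus control difference of mean log2(TPM + 1) for each gene in microglia (circles) and astrocytes (squares), with SE as error bars and open symbols for an adjusted p of 0.05 or more; genes below the filter of a fit have no symbol. Axl at 3.85 and Gas6 at 2.12 are the filled symbols to the right of 0, Mertk, Pros1 and Itgb3 the filled symbols to the left, and all astrocyte symbols are open.

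The cell types were also compared with each other, in the same libraries. In control animals they divided these genes between them. Of the 8 genes 3 were higher in control microglia, 4 were higher in control astrocytes and 1, Mertk, did not pass, while over 15332 genes 26.2% were higher and 39.5% lower in microglia. Pros1 was 12.03-fold and Gas6 2.10-fold higher in microglia by the group means, with differences of 3.56 and 1.05 (limma adjusted p = 1.70e-09 and 0.000107). Itgb3 was higher by 3.08 (limma adjusted p = 9.41e-06). Mfge8 was 68.4-fold higher in astrocytes, a difference of -6.07 (limma adjusted p = 6.44e-11). Axl at -2.38, Tyro3 at -2.79 and Megf10 at -6.34 were also lower in microglia (limma adjusted p = 1.70e-06, 2.04e-07 and 6.48e-10). The microglial and astrocytic levels of Mertk, 207 ± 51.4 TPM (SD, n = 4) and 178 ± 33.99 TPM (SD, n = 5), differed by less than their spread (limma adjusted p = 0.375).

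In KO animals the order of the cell types turned for Axl. It was 2.54-fold higher in KO microglia than in KO astrocytes, a difference of 1.27 (SE 0.15, limma adjusted p = 3.71e-05), while it had been lower in control microglia than in control astrocytes. Gas6 was 11.6-fold and Pros1 4.44-fold higher in KO microglia (limma adjusted p = 2.06e-08 and 4.87e-06). Mfge8, Tyro3 and Megf10 remained lower in microglia, with differences of -5.97, -3.32 and -6.31, and Mertk did not pass (-0.27, limma adjusted p = 0.387; -0.52 and adjusted p = 0.0423 without KO astrocytes of animal 1). Thus 3 members were higher and 3 lower in KO microglia, against 26.4% and 42.9% of 15365 genes. Across the 4 groups, Axl rose in the order control microglia, control astrocytes, KO astrocytes and KO microglia, in which only the astrocyte neighbours did not differ past the threshold. Gas6 rose in the order KO astrocytes, control astrocytes, control microglia and KO microglia, again with no call between the astrocyte groups. For Pros1 the order was control astrocytes, KO astrocytes, KO microglia and control microglia, likewise. Mertk rose in the order KO microglia, KO astrocytes, control astrocytes and control microglia, and no neighbours in that order differed past the threshold.

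The other genes of the pathway were taken from 9 lists with 109 genes in all, of which 89 were tested in microglia. There 15 were higher, 24 lower and 50 did not pass, with a median difference of -0.05 against 0.00 over all genes. The counts of these lists stand against 14.2% higher and 14.2% lower over all genes tested. In astrocytes 82 were tested and limma called 0, with 18 at an unadjusted p under 0.05. Over all 15231 genes tested in astrocytes it called 1, with 1939 at an unadjusted p under 0.05. The phagocytic receptor genes split. Of 14 tested receptors for phosphatidylserine and apoptotic cells 3 rose and 3 fell, with a median of 0.11. Havcr2, which encodes the phosphatidylserine receptor TIM-3, fell from 826 ± 138 to 104.5 ± 11.3 TPM (mean ± SD, n = 4 each; difference -2.96, limma adjusted p = 4.47e-07). Trem2, a lipid-sensing receptor of microglia, fell from 2330 ± 187 to 950.4 ± 25.8 TPM (mean ± SD, n = 4 each; difference -1.29). Pear1, a relative of Megf10, was at 1.75 and 0.125 TPM on average. Stab1, which encodes the scavenger receptor stabilin, rose from 67.8 ± 9.53 to 260 ± 59.4 TPM (mean ± SD, n = 4 each; difference 1.902) and stands on the border-associated macrophage list as well.

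The list of integrin partners and ligands held 9 tested genes, of which 4 fell, 0 rose and 5 did not pass, with a median of -1.01 (limma; 6 at an unadjusted p under 0.05). An integrin gene outside this list, the monocyte marker Itga4, rose. Itgav, the alpha-v partner of Itgb3, fell from 33.0 ± 5.05 to 8.88 ± 2.43 TPM (mean ± SD, n = 4 each; difference -1.81, limma adjusted p = 0.000114). Itgb5, another beta partner of alpha-v, fell from 175 ± 16.4 to 75.8 ± 16.8 TPM (mean ± SD, n = 4 each). The complement receptor subunit genes Itgam and Itgb2 fell by 2.87 and 1.16 on the log2 scale. Of 9 bridging and opsonin genes 2 rose, 1 fell and 6 did not pass. Anxa5, whose product binds phosphatidylserine, rose from 178.5 ± 30.2 to 1220.3 ± 108 TPM (mean ± SD, n = 4 each), and Lgals3, a MERTK ligand, from 8.20 ± 3.804 to 139 ± 26.0 TPM (mean ± SD, n = 4 each). C1qb, a subunit gene of the complement component that tags cells, fell by 0.24 on the log2 scale (limma adjusted p = 0.0310).

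The enzymes that activate the ligands were not called. None of 3 vitamin K carboxylation genes passed (limma; 1 at an unadjusted p under 0.05). Ggcx, the carboxylase gene, was at 15.3 ± 2.29 and 10.7 ± 1.92 TPM (mean ± SD, n = 4 each; difference -0.48, limma adjusted p = 0.0665), and Vkorc1, which recycles vitamin K, at 341 ± 29.8 and 369.5 ± 30.6 TPM (mean ± SD, n = 4 each; limma adjusted p = 0.422). Of 12 genes of receptor shedding and TAM signalling 3 rose, 7 fell and 2 did not pass, with a median of -0.92. Plcg2 (-1.70), a phospholipase gene downstream of phagocytic receptors, and Pik3r1 (-1.20), a regulatory subunit gene of PI3 kinase, fell. Vav3 (2.45), of a Rac exchange factor, and Ifnar1 (1.29), the interferon receptor subunit that TAM receptors engage, rose. The following were picked after their values were seen. Adam10 (-1.49) and Adam17 (-0.95), protease genes known for shedding AXL and MERTK, fell, as did Socs1 (-1.17) and Socs3 (-1.85), inhibitors that TAM signalling induces.

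The counts for the machinery inside the cell and for the signals around it also stand against 14.2% higher and 14.2% lower over all genes tested. Of 11 tested engulfment genes 1 rose and 2 fell, with a median of -0.15. Elmo1, which with a DOCK protein activates Rac, fell from 125.6 ± 12.4 to 31.9 ± 4.82 TPM (mean ± SD, n = 4 each), Dock2 fell by 0.83 on the log2 scale, and the lipid exporter gene Abca1 rose from 17.6 ± 4.56 to 60.4 ± 11.5 TPM (mean ± SD, n = 4 each). Among 8 genes of find-me and do-not-eat-me signals 3 rose and 4 fell. Gpr34 (-2.03), a lysophosphatidylserine receptor gene, Cx3cr1 (-1.77), the fractalkine receptor gene, Siglech (-1.63) and Sirpa (-0.73), the CD47 receptor gene, fell. Gpr34, Cx3cr1 and Siglech are also on the microglial marker list, and Cx3cr1 is the locus of the recombinase allele in all groups. Of 6 phosphatidylserine exposure genes Atp8a2, of a flippase, fell from 18.7 ± 3.67 to 1.35 ± 0.493 TPM (mean ± SD, n = 4 each) and 5 did not pass. Of 17 genes of corpse digestion and lipid-sensing nuclear receptors 3 rose, 2 fell and 12 did not pass, with Pparg at 0.025 ± 0.05 and 3.08 ± 0.842 TPM (mean ± SD, n = 4 each), and Ucp2 (0.82) and the acid nuclease gene Dnase2a (0.80) higher.

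**Figure D5:**
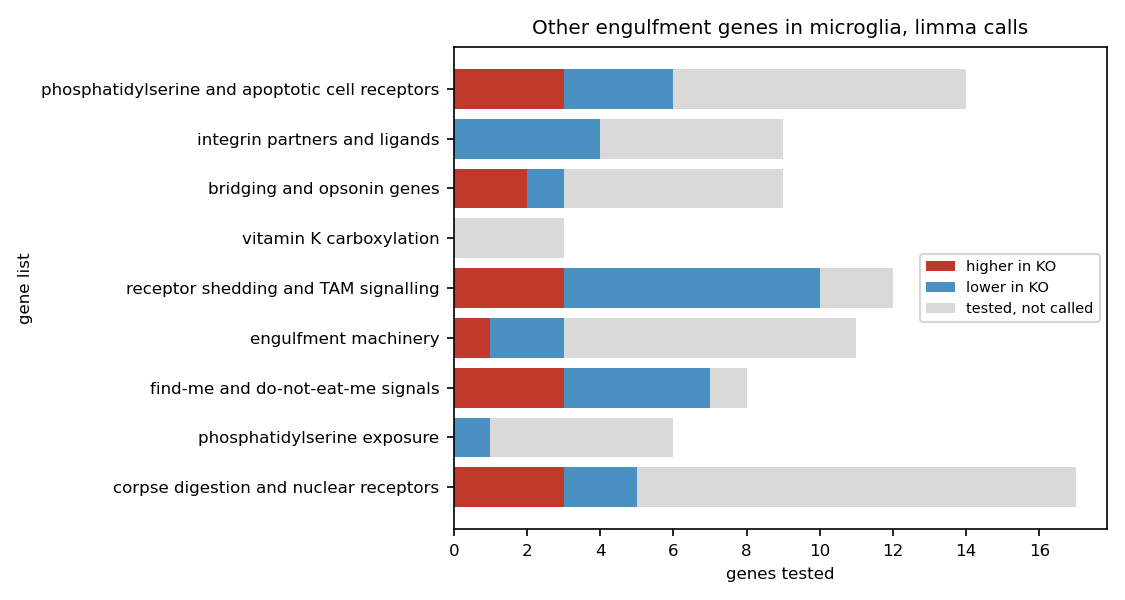
Number of genes tested in each of the 9 lists in microglia (horizontal axis), split into those higher in KO, lower in KO and not called by limma. The list of receptor shedding and TAM signalling has 10 of 12 genes called and the integrin list has 4 lower and 0 higher.

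The position of Axl was looked at after its values were seen. Axl lies on chromosome 7 near the floxed gene itself, with its nearest end 52.2 kb beyond the end of Tgfb1 (GENCODE M21, GRCm38), and 2 genes between them, Ccdc97 and Hnrnpul1, that did not pass in microglia (differences -0.24 and -0.17, limma adjusted p = 0.335 and 0.535). Besides Axl and Tgfb1, 7 genes within 100 kb of Tgfb1 were tested in microglia, of which 1 rose (B3gnt8, 1.25, limma adjusted p = 0.0323) and 2 fell (Bckdha, -1.005, limma adjusted p = 0.000162, and Exosc5, -0.45, limma adjusted p = 0.0323). Over all genes tested in microglia, 14.2% were higher and 14.2% lower. In astrocytes of the same KO animals, which carry the same floxed alleles, the Axl difference was 0.20, but recombination of these alleles was not measured there. Cx3cr1, the gene that drives the recombinase, was at 2.9 TPM on average in KO astrocytes and at 476.6 TPM in KO microglia. A part of the allele in the microglial Axl values was not tested.

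As a description of likeness, the genes with the highest Pearson correlation of log2(TPM + 1) with each member over all 17 libraries were looked up among 10413 genes. The libraries fall into 4 groups, so that these values mostly reflect differences between groups. Axl was most like Anxa5 (r = 0.966) and a row listed as Mir7009 (r = 0.963), Mertk most like Tmem50b (r = 0.931) and Ctsf (r = 0.918), and Gas6 most like Cd22 (r = 0.985) and Zmynd15 (r = 0.979). For Pros1 they were Cflar (r = 0.991) and Capza2 (r = 0.990), for Itgb3 Ubash3b (r = 0.967) and Siglecf (r = 0.958). Mfge8, Megf10 and Tyro3 were higher in the astrocyte libraries than in the microglia of both genotypes. Mfge8 was matched by Fads2 and Cbs (r = 0.997 each) and Megf10 by Ncam1 and Gprc5b (r = 0.999 each). For Tyro3 they were a row listed as LOC108167624 (r = 0.997) and St6galnac3 (r = 0.996).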

How the data were processed

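RNA of microglia and astrocytes sorted from mouse brain was sequenced as paired reads of 61 bp, per the labels' protocols. The authors deposited TPM values, 1 file per library with 35869 gene symbols and 1 decimal. Trim Galore 0.4.2, cutadapt 1.9.1, STAR 2.6.1e, featureCounts 1.6.2 and the build mm10 are named in the submitters' processing notes, and the annotation, strand setting and handling of multiply mapped reads are not given in the sources used here. The TPM of each library sum to nearly the same total, so the depth is unknown and no counting interval is given. Groups came from the titles. Another library of 18, whose title is that of a control astrocyte library and whose description code ends like those of microglia, was left out.

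TPM were compared as log2(TPM + 1) with limma 3.58.1 in R 4.3.3 (variance trend, two-sided, no covariate) over genes that reached 1 TPM in 4 or more libraries of the fit, with Benjamini-Hochberg adjustment over all of them and a threshold of 0.05. Single genes were also tested with exact permutation tests. The fits were tested on simulated data. Alternatives were pseudocounts of 0.1 and 5 TPM, no filter and a filter of 5 TPM, median-of-ratios and quantile scaling, no trend, array weights, the animal number as a block, 1 fit over all 17 libraries, each kind of control alone, astrocyte fits without KO animals 1 and 3 or with a mural marker covariate, and leaving out each library. The members, lists and alternatives were chosen with earlier results of these data known. The text names the members, Tgfb1, and for each list up to 4 genes past the threshold with the smallest p in microglia, or 2 where none passed, and genes outside this rule are said to be so or are marker genes given beside a result. Some genes that this rule would name are not reported here. Microglia and astrocytes with the same number are from the same animal, per the titles, and their deviations across genes correlated at 0.03 to 0.189. With the animal as a block, no call of a member changed between cell types or in the contrast of KO effects. Animals of different genotype share only a number. Python 3.11.15 with scipy 1.17.1, pandas 2.3.3, matplotlib 3.10.9 and numpy 2.4.6 served for tables and figures.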

Additional observations from a re-analysis of the deposited data

Results flagged for a closer look

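In 5 of 36 groups, over these 8 genes and Tgfb1, 1 library stood apart from the others of its group by Dixon's criterion. Chance alone meets it in about 1 in 20 groups where values are normally distributed and not rounded. They were Mertk in KO microglia of animal 1 at 82.9 TPM, Axl in KO microglia of animal 3 at 49.2 TPM, Tyro3 and Megf10 in control microglia of animal 5, each at 0.1 TPM where the other libraries are listed at 0, and Tgfb1 in control microglia of animal 1 at 3.4 TPM. A single 0.1 beside values listed at 0 always meets the criterion, so that rate does not hold for Tyro3 and Megf10. Nor need it hold for Tgfb1, whose low values are rounded to 1 decimal. The Mertk value is the lowest of its group and the Axl value the highest of its group. Without KO animal 1 or KO animal 3 the calls of both genes in microglia held.

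The KO effect differed between microglia and astrocytes for 4 genes by the contrast over all 17 libraries: Axl by 3.66, Gas6 by 2.49, Pros1 by -1.41 and Itgb3 by -2.41 on the log2 scale (limma, adjusted p from 3.52e-08 to 0.000898). For Gas6 and Pros1 the estimates in the cell types have opposite signs, although those in astrocytes did not pass.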

How the results depend on the processing

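Over all alternatives, 738 of 744 values of members kept their call and direction. An uncalled value that changed sign by no more than the SE of the main fit counted as kept. Such values reached -0.10 for Megf10 in astrocytes and -0.06 for the contrasts of Mfge8 and Megf10. Fits in which a member was below the filter are not counted, so Tyro3 and Megf10 between KO cell types had values in 13 of 17 fits. The exceptions were Mfge8 in microglia in 4 of 20 fits (among them the filter of 5 TPM, limma adjusted p = 0.0451), Mertk between KO cell types without KO astrocytes of animal 1, and Megf10 in astrocytes. The uncalled difference of Megf10 there was -0.15 against controls with Y-linked RNA. The difference in microglia ranged from -1.31 to -0.70 for Mertk, 2.66 to 4.44 for Axl, 2.01 to 2.26 for Gas6, -1.12 to -0.90 for Pros1 and -2.78 to -1.26 for Itgb3. The 1 gene called over all genes in astrocytes became 88 in 1 fit over all 17 libraries, 3 against controls with Y-linked RNA, 0 against those without, 0 without KO animals 1 and 3, 0 with the mural covariate and 3 with no filter, and ranged from 0 to 5 when each library was left out. With the replicate block it was 0, and the 3711 genes called in microglia became 2079, but the block ended no call of a member. Same-numbered animals of different genotype correlated at -0.076 to 0.176 across genes. Quantile scaling moved the median of all genes between control cell types from -0.19 to 0.08 and the calls from 4016 higher and 6062 lower to 5392 and 5057, and between KO cell types from -0.24 to 0.10 and from 4058 and 6599 to 5847 and 5204, with no member changing its call. The cause of these changes was not tested. Values near 0.05 TPM, as for Tyro3 and Megf10 in microglia, are limited by the deposited decimals.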

Other observations

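The library left out of all groups held Mertk at 182.8, Axl at 1.4, Tyro3 at 0.1, Gas6 at 352.7, Pros1 at 653.5, Mfge8 at 37.8, Itgb3 at 13 and Megf10 at 0.0 TPM.

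Within the 9 astrocyte libraries Mfge8 and Mertk varied together (Pearson r = 0.887, n = 9 libraries of 2 genotypes, a description without a test), as did Axl and Pros1 (r = 0.861). These libraries also differ in their sums of astrocyte and oligodendrocyte markers.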
